A study of Bos taurus with 57 samples.

Results

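The genes described here were the 100 genes ranked first for a higher level in the anterior pituitary of low, compared to high, plane bull calves. They were chosen by their pituitary values. Levels as CPM (1000000 times the count of a gene divided by its library's total count) were computed for 24616 genes, and the 13862 genes with a mean of at least 1 CPM in the low plane pituitary libraries were ranked by the share of the 90 pairs of a high and a low library in which the low library had the higher CPM. Ties were ordered by the ratio of the low to the high median, and 1 gene was left out by the rule. All 100 members were measured in each of the 3 tissues.

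The study reared Holstein-Friesian bull calves on a high plane or a low plane of early-life nutrition, with growth rates labelled as 1.08 and 0.5 kg/day (the series text gives 1.2 kg/day as the target for the high plane), and took the arcuate nucleus, anterior pituitary and testicular parenchyma at 126 days of age. There were 9 high and 10 low plane libraries from the anterior pituitary, 10 and 10 from the arcuate nucleus, and 10 and 8 from the testes, in the order high and low. All animals were bulls of a single breed fed milk replacer and concentrates, and the planes differed in the amounts offered. The files identify genes by Ensembl identifier without symbols and the reference table paired none of them with a name, so members are given by identifier or by rank, and neither their roles nor the markers of the labelled tissues could be read.

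The anterior pituitary holds several endocrine cell types, which secrete growth hormone, prolactin, adrenocorticotrophic hormone, thyroid-stimulating hormone and the gonadotrophins. It is controlled by releasing and inhibiting factors from the hypothalamus, where neurons of the arcuate nucleus respond to signals of energy status. The gonadotrophins act on the testes, where they drive steroid production and spermatogenesis, and the timing of puberty in cattle is known to depend on nutrition in early life. In bulk tissue a lower level from fewer cells of a type and one from less RNA per cell cannot be told apart.

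Library totals were between 898979 and 32009433 reads, and for the pituitary they ran from 6895844 to 27426173. The lowest total was that of the high plane arcuate library C22. All 57 libraries had their highest median correlation with libraries of their labelled tissue, A48 included, a testes library whose file header carries another prefix. The 2 most abundant pituitary genes took 4.6% of the reads in the low plane library A47 and between 15.3% and 35.7% in every other pituitary library, which moves the CPM of all other genes. A score was given to each library as the average log2 CPM of 200 genes that moved together within diet in the other 2 tissues, and it was between 4.25 and 4.55 in the high plane libraries A51, A18 and A57 and in the low plane libraries A10 and A47, and at most 3.67 in the remaining pituitary libraries. By this score A10 and A47 stood apart from the other low plane pituitary libraries, and A51, A18 and A57 from the other high plane ones. The ratios, the leave-out readings and the choice of members are also given without A10 and A47. This removal was chosen after their readings were seen, and the high plane libraries of like score were kept.

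In the anterior pituitary, the members were on average modestly higher in the low plane group. The ratio of the low to the high median CPM had a median of 1.37 over the 100 members and ran from 1.12 to 6.63. It was below 1.2 for 11 members, from 1.2 to 1.5 for 54, from 1.5 to 2 for 21, and 2 or more for 14. Over all 13862 ranked genes the median ratio was 1.03. Without A10 and A47 the members had a median ratio of 1.37 as well, with a range from 1.12 to 8.12. These values chose the members, so they are a description and nothing is inferred from them.

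Only ENSBTAG00000012798 and ENSBTAG00000017840 had every low plane library above every high plane library, which is 0.0144% of the ranked genes and is fixed by the ranking. For ENSBTAG00000012798, the 9 high plane pituitary libraries had a lowest value of 12.2, a median of 18.4 and a highest value of 21.98 CPM, and the 10 low plane libraries 23.3, 27.3 and 40.3 CPM. For ENSBTAG00000017840, the corresponding values were 146, 202 and 227 CPM in the high plane group and 228, 256 and 337 CPM in the low plane group. The gap between the groups was narrow in both genes, and in both A10 was the second lowest of the low plane libraries. The log fold changes on the log2 scale were 0.67 (SE 0.15) and 0.46 (SE 0.087).

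The third member in rank was ENSBTAG00000021972, with high plane values of 11.4, 17.8 and 32.4 CPM and low plane values of 29.5, 38.9 and 50.05 CPM for the lowest, median and highest library. The low plane library A4 was the lowest of its group and lay under the high plane library A51, so the groups overlapped by this pair, and the other 9 low plane libraries lay above every high plane library. The log fold change of this gene was 0.90 (SE 0.19), larger than in the members of rank 1 and 2.

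**Figure D1:**
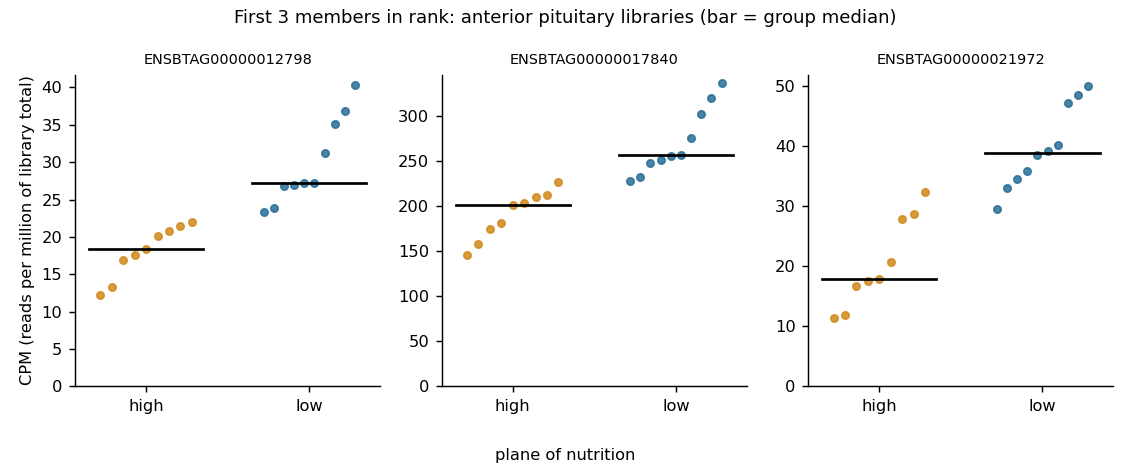
CPM of the first 3 members in rank in each anterior pituitary library, by plane of nutrition, with 9 high (orange) and 10 low (blue) plane libraries and a bar at each group median. The groups do not touch in ENSBTAG00000012798 and ENSBTAG00000017840, and 1 low plane library at 29.5 CPM lies under the highest high plane library at 32.4 CPM in ENSBTAG00000021972.

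Beyond the first members the groups overlapped by more libraries. A share of at least 95% of the pairs was reached by 19 members, and the lowest share among the members was 87.8%, beside a median of 53.3% over the ranked genes. The 3 members ranked 98 to 100 had ratios of 2.67, 2.33 and 2.13 at the share of 87.8%, and the 3 genes just outside the list had the same share with ratios of 2.08, 1.72 and 1.70. A total of 32 ranked genes had that share and 6 of them entered, so the edge of the list was set by the ratio of medians.

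The largest ratios were found among members with few reads. CPM is not divided by gene length, so the levels of different members are not compared, but they show how many reads lie behind each. For the 21 members with a low plane mean under 5 CPM the median ratio was 1.90, for the 39 with 5 to 50 CPM it was 1.38, and for the 40 with at least 50 CPM it was 1.28. The median read count in the high plane group was under 20 for 11 members and in the low plane group for 4 members, where a ratio carries more counting noise.

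The member with the ratio of 6.63, at rank 95, showed how such a ratio arose. Its high plane pituitary libraries held between 0 and 1.30 CPM, with a median of 0.502. Of the 10 low plane libraries, 8 held between 2.62 and 10.7 CPM, whereas A10 and A47 held 0.0653 and 0.121 CPM. The groups therefore overlapped entirely through these 2 libraries, and the ratio was 8.12 without them.

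The members varied less between libraries of a diet than most genes did. The median coefficient of variation within the high plane group was 21.3% for the members and 43.7% for the ranked genes, and within the low plane group 17.3% and 37.03%. Within diet, 14 of the 100 members had a correlation with the library score above 0.7 in size, that is 14%, beside 71.3% of all genes tested in the pituitary. Fewer pairs of members than of other genes were strongly correlated in either direction, with 19.2% of 4950 pairs correlated above 0.5 and 3.05% below −0.5 within diet, beside 35.8% and 34.9% of all pairs of ranked genes. A gene with a small spread within diet is more easily ranked high by this rule, and these correlations share 19 libraries and are descriptions.

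In the fit of all 14411 genes tested in the pituitary, the log fold change was above 0 in all 100 members, with a median of 0.47 and a range from 0.17 to 2.96, beside a median of 0.017 over all genes. At a false discovery rate (FDR) below 0.05 in edgeR's quasi-likelihood test, 8 of the members and 0.0694% of all genes were higher in the low plane group. The ranking used this same contrast, so nothing is read from that count, which moves with the fit. It was 56 with DESeq2 (0.541% of all genes higher), 81 with the library score as a covariate (2.66%) and 3 with library totals (0.0278%) in place of scaling by trimmed means of M-values (TMM), which adjusts for a few abundant genes.

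Each pituitary library was also left out in turn, 100 genes were chosen on the other 18, and these genes were read in the library left out. A high plane library was read as on the expected side for a gene when it lay below the median of the low plane libraries, and a low plane library when it lay above the median of the high plane libraries. The median over the 19 libraries was 91% of the newly chosen genes, beside 49.2% of all ranked genes. The newly chosen genes exceeded all ranked genes in 18 of 19 libraries. The values of the left-out library did not enter the choice, but the medians they were read against came from libraries that did. The choice itself thus tends to raise the percent of newly chosen genes on the expected side. The percent of all ranked genes is not the level that chosen genes would have without a diet difference, so these readings are descriptions.

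High plane libraries had between 72% and 99% of the newly chosen genes on the expected side, with a median of 87%. The lowest of them was A51, at 72% beside 49.2% of all ranked genes. Low plane libraries had between 39% and 99%, with a median of 92%, and 2 of them were far lower than the rest. A10 had 39% of the genes on the expected side beside 46.1% of all ranked genes, and A47 had 61% beside 57.6%. The next lowest low plane library was A40 with 76%, beside 42.6% of all ranked genes.

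With TMM-scaled CPM in place of library totals, the median over the libraries was again 91%, beside 52.2% of all ranked genes, and A10 had 49% and A47 61%. These 2 low plane libraries had library scores of 4.42 and 4.30, and the high plane libraries A57, A18 and A51, with scores of 4.55, 4.49 and 4.25, had 92%, 86% and 72% of the genes on the expected side by library totals. With A10 and A47 left out throughout, genes chosen on 16 libraries had a median of 97% on the expected side in the 17th, with a range from 86% to 100%, beside a median of 49.6% of all ranked genes. These 2 libraries were left out after their readings were seen, and the medians read against again came from libraries that chose the genes. The higher median is therefore a description. The part of the score in these readings was not tested.

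**Figure D2:**
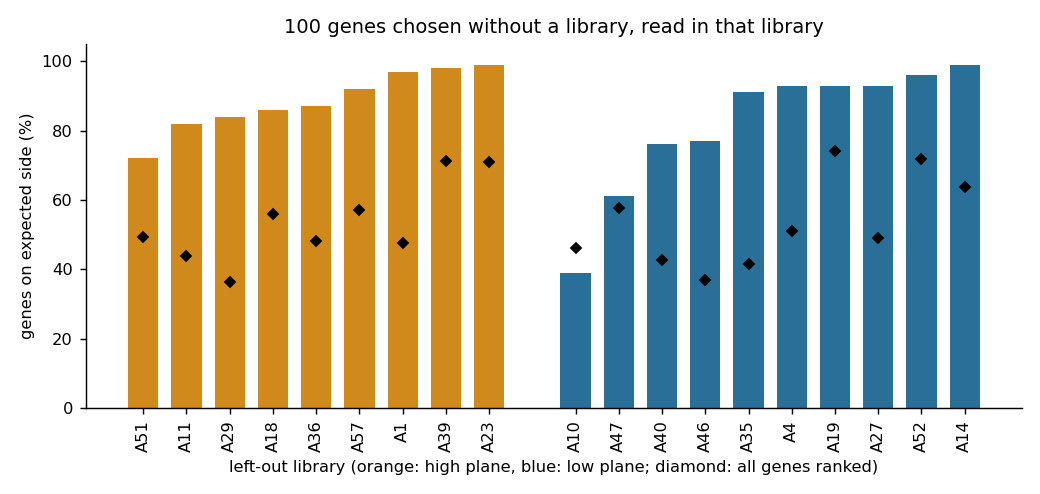
Percent of 100 genes, chosen on the other 18 pituitary libraries, that lay on the expected side in the library left out (bars, high plane in orange and low plane in blue), with the percent of all ranked genes as diamonds. The bar exceeds the diamond in 18 of 19 libraries, and the exception is the low plane library A10 at 39%. The medians that set the expected side come from libraries that chose the genes, so the diamond is not a level without a diet difference.

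The list itself depended on the same 2 libraries. Without A47 the rule kept 59 of the 100 members, without A10 it kept 64, and without both it kept 31. Leaving out any other single library kept between 70 and 93 members. A total of 40 members were chosen whichever library was left out, and the first 2 in rank were among the 66 that TMM-scaled CPM kept. Under that scaling every one of the 100 members still had a ratio above 1 and a share of at least 80% of the pairs.

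In the arcuate nucleus, the members showed no common direction with diet. Of the 95 members that passed the filter on low counts, 47 were higher in the low plane group, that is 49.5%, beside 49.1% of all 14757 genes tested. Their median log fold change was −0.0012, with quartiles of −0.11 and 0.15, beside a median of −0.010 over all genes. None of the 95 passed an FDR of 0.05 in edgeR's test in either direction, where 0% of all genes were called higher and 0% lower. At an unadjusted p below 0.05 in edgeR there were 7 of the 95 members higher, beside 8.2% of all genes, and 3 lower, beside 1.72%, and DESeq2 also called 0 members. The other 5 members had group means of at most 0.563 CPM there.

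The member with the smallest p-value in the arcuate nucleus was ENSBTAG00000020335, at rank 6 in the pituitary. Its 10 high plane arcuate libraries had a lowest value of 2.19, a median of 2.64 and a highest value of 3.88 CPM, and the 10 low plane libraries 3.22, 3.603 and 5.48 CPM. The low plane libraries thus lay in the upper part of the range, with 3 of 10 above every high plane library. The log fold change was 0.49 (SE 0.15), with an FDR of 0.477 in edgeR, which did not pass. In the pituitary the same gene had medians of 3.33 and 4.08 CPM, and in the testes of 1.13 and 1.65 CPM, high plane first, and its testes log fold change of 0.47 (SE 0.19) had an FDR of 0.123 in edgeR.

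The second smallest p-value rested on a single library. ENSBTAG00000021933 had between 0 and 1.67 CPM in the high plane arcuate libraries, and between 0.115 and 1.70 CPM in 9 of the 10 low plane libraries, whereas the low plane library C8 had 95.5 CPM. The log fold change was 2.93 (SE 0.94, FDR 0.477 in edgeR) with C8 and −0.17 (FDR 0.742 in edgeR) without it. Apart from C8, a single low plane library, at 1.70 CPM, lay above the highest high plane value of 1.67 CPM. In the pituitary this gene had medians of 3.04 and 6.04 CPM in the high and low plane groups, and in the testes of 6.95 and 4.78 CPM.

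The lower members with the smallest p-values did not pass either. ENSBTAG00000014178 had high plane arcuate values of 27.9, 31.99 and 44.1 CPM and low plane values of 8.42, 26.9 and 35.9 CPM for the lowest, median and highest library, with a log fold change of −0.33 (SE 0.15, FDR 0.477 in edgeR). ENSBTAG00000019061 had 6.28, 8.77 and 17.8 CPM in the high plane group and 1.15, 7.48 and 8.41 CPM in the low plane group, with a log fold change of −0.52 (SE 0.24, FDR 0.477 in edgeR). The lowest library in both was C6, a low plane library whose library score of 4.97 was the highest of the arcuate nucleus, and the groups overlapped in both genes.

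The direction of the arcuate values moved with the score. With the library score as a covariate, 62 of the 95 members were higher in the low plane group, that is 65.3%, beside 54.9% of all genes, and none passed the FDR. Scores ran from 2.995 to 3.54 in the high plane arcuate libraries and from 2.99 to 4.97 in the low plane libraries. The part of the score in this shift was not tested.

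In the testes, 88 members passed the filter and a few differed between the planes, at a share close to that of all genes. In edgeR's test at an FDR below 0.05, 5 of the 88, that is 5.68%, were higher in the low plane group, beside 4.75% of all 15310 genes tested. A further 2 of the 88, that is 2.27%, were lower, beside 2.16% of all genes. The shares called among the members were thus near the background in both directions. Of the 88 members, 53 had a log fold change above 0, that is 60.2%, beside 49.3% of all genes, and the median was 0.044 beside −0.014. With library totals in place of TMM scaling, 65 were above 0, that is 73.9%, beside 52.5% of all genes, with a median of 0.11, and with the library score as a covariate the median was 0.097. The other 12 members had group means of at most 0.729 CPM in this tissue.

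Of the called members, ENSBTAG00000009611 showed the clearest separation. Its 10 high plane testes libraries had a lowest value of 55.2, a median of 63.2 and a highest value of 71.0 CPM, and the 8 low plane libraries 74.97, 84.98 and 93.3 CPM. All 8 low plane libraries lay above every high plane library. The log fold change was 0.34 (SE 0.074, FDR 0.0206 in edgeR), and 0.30 with an FDR of 0.233 in edgeR when log2 total count was a covariate. The gene stood at rank 22 in the pituitary, with medians of 39.9 and 56.9 CPM in the high and low plane groups, whereas in the arcuate nucleus the medians of 28.7 and 29.1 CPM were alike within the spread, with a log fold change of −0.0057 (SE 0.12).

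ENSBTAG00000021972, the third in rank, was also higher in the testes of the low plane group. The high plane testes libraries held 3.30, 9.09 and 11.7 CPM, and the low plane libraries 11.2, 15.4 and 32.5 CPM, for the lowest, median and highest library. Of the 8 low plane libraries, 7 lay above every high plane library. The log fold change was 1.10 (SE 0.28, FDR 0.0297 in edgeR), and it was 0.77 with an FDR of 0.0816 in edgeR when the library score was a covariate. In the arcuate nucleus the medians were 29.5 and 34.8 CPM, the groups overlapped widely, and the log fold change was 0.64 (SE 0.26, FDR 0.477 in edgeR).

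The 3 remaining higher members stood at ranks 7, 62 and 94. The member of rank 7 was at low levels in the testes, with medians of 0.807 and 1.39 CPM in the high and low plane groups and a log fold change of 0.81 (SE 0.22, FDR 0.0383 in edgeR). The member of rank 62 had medians of 178 and 257 CPM and a log fold change of 0.43 (SE 0.12, FDR 0.0357 in edgeR). The member of rank 94 had medians of 118 and 144 CPM and a log fold change of 0.33 (SE 0.097, FDR 0.0486 in edgeR). In all 3 the lowest low plane library lay within the range of the high plane libraries.

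Both members called lower in the testes were higher in the low plane pituitary. ENSBTAG00000020455 had high plane testes values of 146, 189 and 240.2 CPM and low plane values of 87.0, 116 and 183 CPM for the lowest, median and highest library. Of the 8 low plane libraries, 6 lay below every high plane library, and the log fold change was −0.68 (SE 0.14, FDR 0.0206 in edgeR). It was −0.67 with an FDR of 0.221 in edgeR when log2 total count was a covariate, and −0.62 with an FDR of 0.0526 in edgeR without B2. In the pituitary, where it stood at rank 10, the medians were 924 and 1188 CPM in the high and low plane groups, and in the arcuate nucleus they were 57.9 and 58.8 CPM with overlapping groups.

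ENSBTAG00000017280 had high plane testes values of 50.2, 93.3 and 159 CPM and low plane values of 17.2, 34.6 and 123 CPM for the lowest, median and highest library. The highest of the low plane libraries was B15, and the other 7 lay below every high plane library, the highest of them at 41.6 CPM. The log fold change was −1.16 (SE 0.34, FDR 0.0480 in edgeR), close to the threshold, and 16 of the 23 alternative fits no longer called it. In the pituitary, at rank 58, its medians were 37.1 and 70.1 CPM, and in the arcuate nucleus, where its level was highest, 484 and 380.1 CPM with a log fold change of −0.41 (SE 0.20, FDR 0.477 in edgeR).

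**Figure D3:**
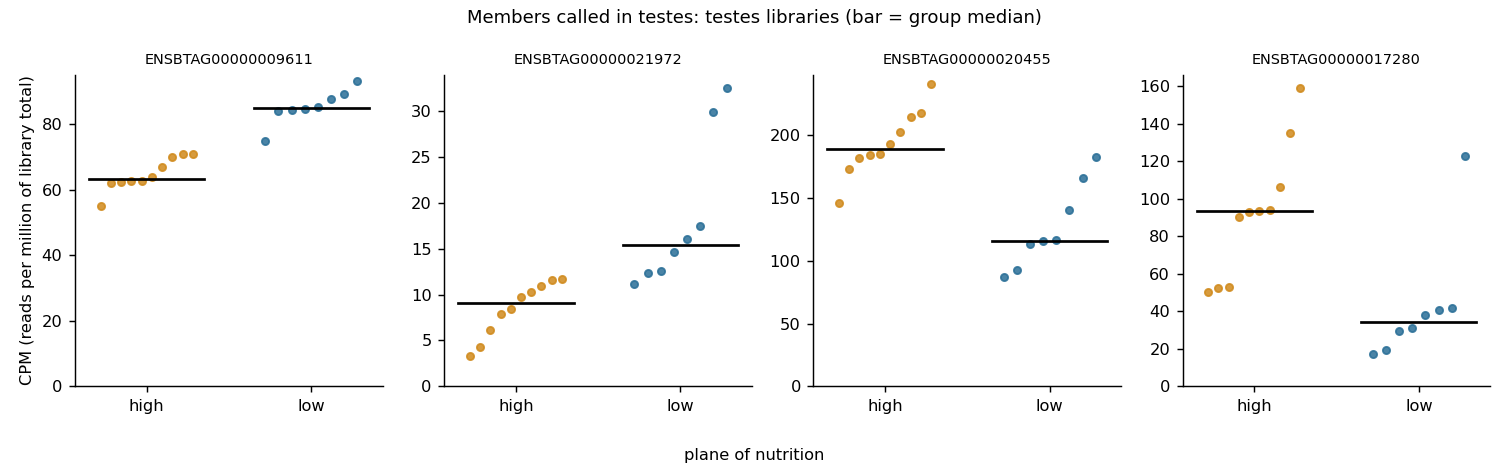
CPM in each testes library of the 2 members with the smallest p-values among those called higher (ENSBTAG00000009611 and ENSBTAG00000021972) and of the 2 called lower (ENSBTAG00000020455 and ENSBTAG00000017280), with 10 high (orange) and 8 low (blue) plane libraries and a bar at each group median. The groups are apart in ENSBTAG00000009611, at most 71.0 CPM against at least 74.97 CPM, and overlap in the other 3.

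The number of called members in the testes, 7 of 88 beside 6.9% of all genes in either direction, moved with the fit together with the share of all genes called. It was 0 with log2 total count as a covariate (0.0131% of all genes) and 5 with the library score as a covariate (5.28%). Without the filter it was 3 of 100 (2.72%), with DESeq2 12 (12.9%) and with library totals in place of TMM scaling 13 (15.3%). With 1 library left out, it was 1 without B2 (1.02% of all genes), 2 without B5, B38, B20 or B21 (1.39% to 1.97%), 3 without A48, B12, B32 or B26 (2.14% to 3.06%) and 4 without B49 (3.38%). It was 13 without B31 (17.2%), 15 without B7 (16.6%) and 13 without B42, where 30.1% of all genes were called, a higher share than among the members. Library scores in the testes ran from 3.502 to 4.96 in the high plane group, where B42 was the highest, and from 3.47 to 5.09 in the low plane group, with medians of 3.69 and 4.42. The part of the score in the testes results was not tested.

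**Figure D4:**
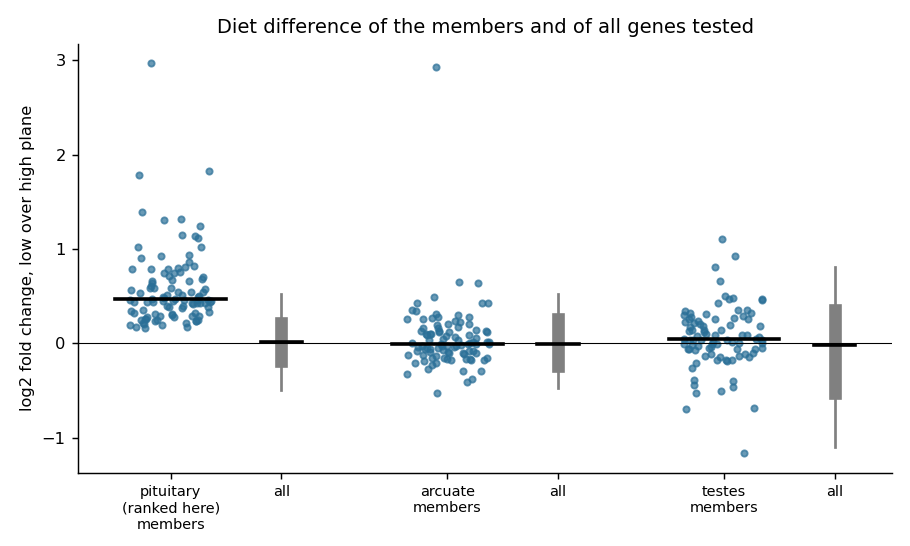
Log2 fold change, low over high plane, of the members in each tissue (blue points, bar at the median) beside all genes tested (grey box from the first to the third quartile, line from the 5th to the 95th percentile, bar at the median). The pituitary points are above 0 because that contrast ranked the genes, and the medians of the members are −0.0012 for the arcuate nucleus and 0.044 for the testes.

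Whether the diet effect of a member differed between testes and arcuate nucleus was tested as an interaction of diet and tissue. None of the 95 members tested passed an FDR of 0.05 in edgeR, where 0% of all 16214 genes were called. At an unadjusted p below 0.05 in edgeR, 14 of the 95 members had a more positive effect in the testes, beside 8.28% of all genes, and 2 a more negative one, beside 2.49%, and DESeq2 called 3 members, beside 1.31% of all genes. The effect was more positive in the testes for 68 of the 95 members, that is 71.6%, beside 52.99% of all genes, with a median difference of 0.13 beside 0.030 on the log2 scale. The study took the 3 tissues from the same calves and the labels do not say which libraries share a calf, so that pairing was not used. The p-values and FDRs of the interaction therefore treat libraries of the same calf as independent.

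The smallest FDR of the interaction belonged to ENSBTAG00000020455, whose difference between testes and arcuate nucleus was −0.70 (SE 0.17, FDR 0.0637 in edgeR). It passed the threshold with DESeq2 (FDR 0.0140), with the library score as a covariate (FDR 0.0217 in edgeR), and in edgeR without C37 (FDR 0.0419), B15 (FDR 0.0371) or B7 (FDR 0.0361). For ENSBTAG00000009611 the difference was 0.44 (SE 0.14, FDR 0.148 in edgeR). The called and uncalled effects of these genes in the 2 tissues were therefore not shown to differ in the edgeR test with all libraries.

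Across the 88 members tested in both tissues, 28 were higher in the low plane group in both, 20 lower in both, 25 higher in the testes only and 15 higher in the arcuate nucleus only. The 14 members with a pituitary ratio of at least 2 had a median pituitary log fold change of 1.19. Of these, 12 were tested in the arcuate nucleus, with 6 higher and a median of 0.071, and 7 in the testes, with 6 higher and a median of 0.28. A large ratio in the pituitary thus went with values on both sides of 0 in the arcuate nucleus. In the testes 6 of the 7 tested were above 0, and the rest of the 14 had too few reads there to be tested.

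By level, most of the members, like most of the ranked genes, had their highest mean outside the pituitary. The mean CPM over all libraries of a tissue was highest in the testes for 47 members, in the pituitary for 28 and in the arcuate nucleus for 25. Among the 13862 ranked genes the corresponding shares were 44.6%, 21.03% and 34.4%. The lowest mean was in the pituitary for 22 members, beside 35.5% of the ranked genes. The pituitary mean exceeded the arcuate mean for 57 members, beside 45.9% of the ranked genes, and the testes mean for 49 members, beside 39.6% of the ranked genes. Library totals in the pituitary include the reads of its most abundant genes, which lowers the CPM of all others there. In the high plane groups, a mean under 1 CPM was found for 10 members in the pituitary, for 10 in arcuate and for 15 in testes libraries.

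Every pituitary library lay above every library of the other tissues for 4 members, beside 1.17% of the ranked genes. Every arcuate library lay above all others for 4 members, beside 3.24% of the ranked genes, and every testes library for 8 members, beside 4.91%. No member had every pituitary library below all others, beside 1.49% of the ranked genes. The count for the arcuate nucleus was near its background, and each count rests on 8 genes or fewer. Under TMM scaling over all libraries the counts were 7 members for the pituitary, beside 1.71% of the ranked genes, 5 for the arcuate nucleus, beside 3.44%, and 6 for the testes, beside 3.69%.

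The 2 members with the largest ratios of the pituitary mean to the next tissue mean were chosen after their values were seen. ENSBTAG00000047599, at rank 76, had 118, 292 and 441 CPM in the high plane pituitary libraries and 387, 461 and 629 CPM in the low plane libraries for the lowest, median and highest library. It reached at most 3.06 CPM in any arcuate library and 2.07 CPM in any testes library, so the pituitary mean of 397 CPM was 349 times the next tissue mean. The lowest of its pituitary libraries was A51, and 6 of the 10 low plane libraries lay above every high plane library.

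ENSBTAG00000015406, at rank 28, had few reads outside the pituitary. Its pituitary values were 0.902, 3.41 and 4.44 CPM in the high plane group and 2.61, 5.20 and 6.75 CPM in the low plane group for the lowest, median and highest library, with A10 the lowest of the low plane libraries. In the arcuate nucleus it was at 0 in 8 high and 5 low plane libraries, and the highest value was 2.78 CPM in C8, the same library that stood apart for ENSBTAG00000021933. It was not tested in either of the other tissues.

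At the other end were members with their lowest levels in the pituitary, chosen in the same way as the smallest ratios of the pituitary mean to the lower of the other tissue means. ENSBTAG00000016017, at rank 73, had medians of 2.71 and 4.996 CPM in the pituitary, 13.3 and 15.7 CPM in the arcuate nucleus, and 15.7 and 17.4 CPM in testes, high plane first. ENSBTAG00000002865, at rank 14, had medians of 2.37 and 5.95 CPM in the pituitary, 14.02 and 15.4 CPM in the arcuate nucleus, and 15.2 and 19.6 CPM in testes. The low plane pituitary medians of both genes remained below the medians of either group in the other tissues. Their log fold changes, 0.43 (SE 0.31) and 0.28 (SE 0.18) for the arcuate nucleus and, for the testes, 0.052 (SE 0.17) and 0.090 (SE 0.21), did not pass the FDR in edgeR.

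**Figure D5:**
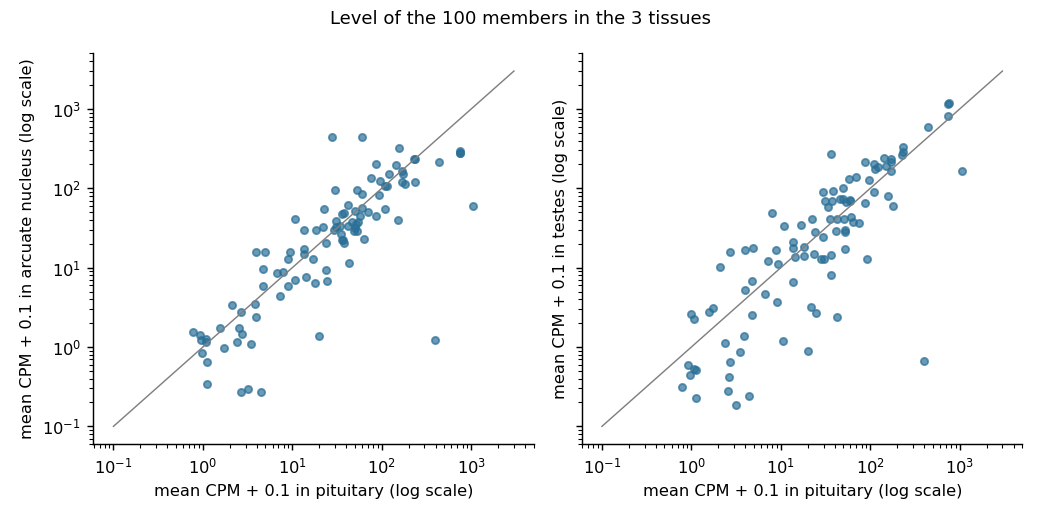
Mean CPM of each of the 100 members in the pituitary (horizontal) against the arcuate nucleus (left) and the testes (right), on log scales after adding 0.1, with the line of equal level in grey. A total of 57 members lie below the line on the left and 49 on the right, and the point at 397 CPM in the pituitary and near 1 CPM elsewhere is ENSBTAG00000047599.

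Grouped by the tissue of their highest mean, the members gave the following counts in the other tissues, and the differences between these groups were not tested. The 28 with the highest mean in the pituitary had a median pituitary ratio of 1.48, and 17 of the 23 tested in the arcuate nucleus and 12 of the 20 tested in the testes were higher in the low plane group. Of the 25 with the highest mean in the arcuate nucleus, 11 of 25 were higher there and 12 of 21 in the testes. Of the 47 with the highest mean in the testes, 19 of 47 were higher in the arcuate nucleus and 29 of 47 in the testes. Called members in the testes numbered 1 of 20, 3 of 21 and 3 of 47 in these groups, beside 6.9% of all genes called in either direction.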

How the data were processed

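Single-end RNA-seq of 57 libraries was used. The authors deposited for each library whole-number counts of reads per Ensembl gene, without normalization. The labels name CASAVA 1.4, STAR, HTSeq and edgeR among the submitters' tools, and the genome build and annotation are not given in the sources used here. Groups follow the labelled diet and tissue of each library. The members and lists were chosen with earlier results of these data known.

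Diet was tested per tissue with edgeR 4.0.16 (R 4.3.3), after edgeR's default filter on low counts and TMM scaling, by quasi-likelihood F-tests, and p-values were adjusted after Benjamini and Hochberg over all genes tested (FDR below 0.05). The SE printed with a log fold change is the size of that change divided by the square root of its F statistic. The interaction was fitted over arcuate nucleus and testes libraries. Alternatives were DESeq2 1.42.0, no filter, library totals, covariates and leaving out each library. Descriptions used Python with pandas on CPM from library totals. Since separate calves lie behind the libraries of a group, p-values of the tests within a tissue refer to the spread between calves. The interaction treated libraries of the same calves as independent, so its p-values do not take account of that sharing. Identifiers named were the first in rank and, in each other diet comparison, at most 2 higher and 2 lower with the smallest p-values. ENSBTAG00000047599, ENSBTAG00000015406, ENSBTAG00000016017 and ENSBTAG00000002865 were instead named for the largest or smallest ratios between tissue means, after their values were seen. Gene lists, markers and sequences, which need names, were not used here. Genes that share reads with similar or overlapping genes could not be recognized from identifiers.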

Additional observations from a re-analysis of the deposited data

Results flagged for a closer look

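Sets of 8 to 10 values within a group were searched, for the named members, the library score and the leave-out readings. Of 98 sets, 21 had a single library at one end whose gap to its neighbour passed Dixon's 95% limit. Chance alone passes that limit in about 1 in 20 sets of independent, normally distributed values. Many of these sets are CPM values, some near 0, from the same libraries, so the number flagged is not set against that rate. The low plane arcuate library C8 did so for 3 members, ENSBTAG00000021933 at 95.5 CPM beside a next value of 1.70, ENSBTAG00000015406 at 2.78 CPM beside 0.227 and ENSBTAG00000020455 at 95.8 CPM beside 69.0. ENSBTAG00000021933 was also flagged in the high plane arcuate library C22 at 0 CPM, in the high plane testes library A48 at 15.7 CPM and in the low plane testes library B7 at 12.8 CPM. C22 held 898979 reads in total and every other arcuate library at least 8670087, so few reads lie behind the CPM values of C22. ENSBTAG00000017280 had a flagged library in 4 groups, A11 at 86.5 CPM and A52 at 190.5 CPM in the high and low plane pituitary, C9 at 917 CPM in the high plane arcuate nucleus and B15 at 123 CPM in the low plane testes.

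In the arcuate nucleus the other flagged values were 169 CPM in C44 for ENSBTAG00000017840, 28.9 CPM in C53 for ENSBTAG00000016017 and 26.7 CPM in C22 for ENSBTAG00000002865, all high plane libraries, and 1.15 CPM in the low plane library C6 for ENSBTAG00000019061. In the testes they were 4.71 CPM in B54 for ENSBTAG00000012798, 2.07 CPM in B49 for ENSBTAG00000047599 and 26.9 CPM in B42 for ENSBTAG00000002865, all high plane libraries, and 0.553 CPM in the low plane library B50 for the member of rank 95. In the pituitary ENSBTAG00000015406 was at 2.61 CPM in the low plane library A10, beside a next value of 4.92 CPM. The library score was flagged in 2 high plane libraries, C9 of the arcuate nucleus at 3.54 and B42 of the testes at 4.96, beside next values of 3.24 and 3.92.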

How the results depend on the processing

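Values that moved were as follows. The members called in the testes, 7 in all, were 12 with DESeq2, 3 without the filter, 13 with library totals, 0 with log2 total count as a covariate, and between 1 and 15 with each library left out. The members called for the interaction, 0 in all, were 3 with DESeq2, 6 with the library score and between 0 and 1 with each library left out. Those called in the pituitary, 8 in all, were 56 with DESeq2, 3 with library totals, 81 with the library score, and between 2 and 8 with each library left out, with 2 without A1, A23 or A52, 3 without A39, A14, A19 or A35, and 5 without A36, A46, A10 or A47. None was called in the arcuate nucleus under any alternative. The choice of members kept 66 with TMM-scaled CPM, 79 with a mean of at least 5 CPM, 31 without A10 and A47, and between 59 and 93 with each library left out. With each library left out, the median log fold change of the members ran from 0.44 to 0.49 in the pituitary, from −0.020 to 0.041 in the arcuate nucleus and from 0.020 to 0.081 in the testes. Members above both other tissues in every pituitary library were 7 in place of 4 under TMM over all libraries. ENSBTAG00000021933 turned from 2.93 to −0.16 with DESeq2 and to −0.17 without C8 in the arcuate nucleus, and ran up to 3.08 with another library left out. ENSBTAG00000021972 was not called without B5, B38, B2, B20 or B21 or with either covariate, ENSBTAG00000020455 was not called without B2, and none of the 4 genes named in the testes was called with log2 total count as a covariate, where the log fold changes of ENSBTAG00000009611, ENSBTAG00000021972, ENSBTAG00000020455 and ENSBTAG00000017280 were 0.30, 1.06, −0.67 and −1.47 beside 0.34, 1.10, −0.68 and −1.16. The median of the members in the testes was 0.11 with library totals, 0.082 with log2 total count and 0.097 with the library score. The cause of these changes was not tested. The leave-out readings, with and without A10 and A47, the removal of A10 and A47 together, the scaling over all libraries and, for the pituitary count, no filter and log2 total count were chosen after seeing the data. No paired analysis was possible. The high and low plane groups hold different calves, and the labels do not say which libraries of different tissues share a calf.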
